A study of Lupinus micranthus with 18 samples.

Results

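A group of 60 unigenes, of 81470 in the deposited table, was higher in drought-treated than in untreated leaves of America seedlings and stayed near its untreated level in Iceland seedlings. Unigenes are transcripts assembled from the reads, and no reference genome of the species was used here. The series sequenced messenger RNA from leaves of Lupinus micranthus, a lupin, in 18 libraries. Seedlings came from seeds of America or of Iceland, and were untreated or kept under PEG drought for 24 h or 72 h, which gives 6 groups of 3 libraries. The labels give no line, age, growth stage or number of plants for any group, no hours for either untreated group, and no harvest day, and they leave unstated whether replicates came from different plants. PEG effects cannot be told apart from those of time or handling, and each p-value rests on variation among libraries that could be technical. Library totals were 9603068 to 12605500 counts. In bulk leaf RNA, fewer cells of a type and less RNA per cell cannot be told apart either.

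The members were chosen by measured values. Counts were scaled to a common library total (CPM), and L is log2 of the group's mean CPM plus 1. A unigene had to have a mean under 200 CPM over all 18 libraries and at least 1 CPM in both untreated groups. Its L had to be at least 1 higher at 24 h and at 72 h than untreated in America, within 0.5 of untreated at both times in Iceland, and within 1 between the untreated groups. The rule would have taken the 150 with the largest smaller America rise, but 60 met the conditions and all were taken. Every difference described here between PEG and untreated leaves, and between the untreated groups, was used by that choice. These differences are descriptions and have no bearing on whether the origins respond differently.

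Polyethylene glycol (PEG) is a polymer that draws water away from roots. Plants under such stress close their stomata, make the hormone abscisic acid and raise transcripts for osmolyte synthesis, protective proteins and transport, while transcripts of growth and photosynthesis commonly fall. The deposited table holds identifiers alone, with no name, function or sequence, so no role is given to any member, and leaf markers could not be looked up.

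Few of the unigenes that were higher in America met the condition on Iceland. Of 20811 unigenes inside the limits on abundance, 2111 had a rise of at least 1 at both times in America. Of these, 1236, or 58.6%, also rose by at least 1 at both times in Iceland. The Iceland levels stayed within 0.5 of untreated at both times in 77, or 3.65%. In 17 of those 77 untreated Iceland leaves were higher than untreated America leaves by 1 or more, and in 0 the reverse held, which leaves the 60 members, 2.84% of the 2111. Among the 2111 the median Iceland change was 1.25 at 24 h and 1.42 at 72 h on the scale of L, against 0.08 and 0.20 in the members. The same rule with the origins exchanged took 104 unigenes.

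**Figure D1:**
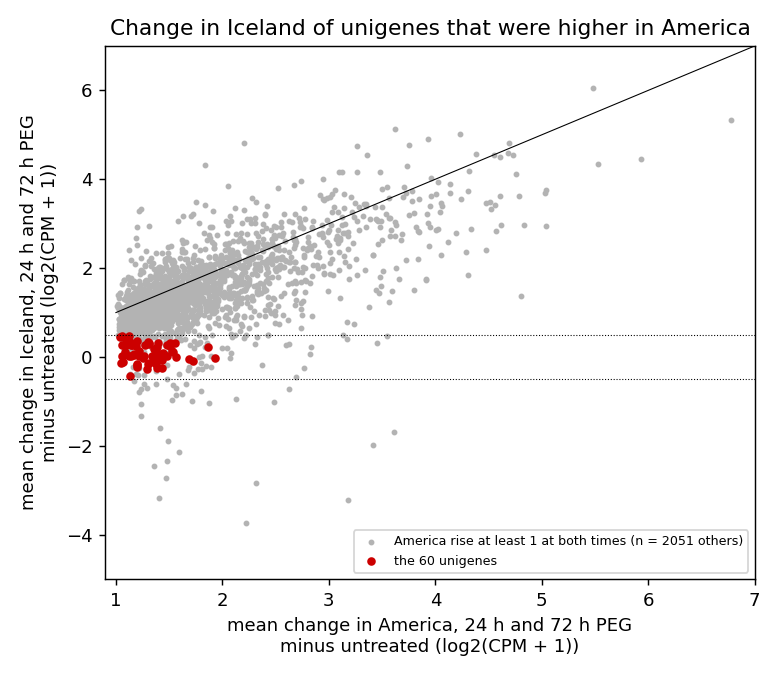
Mean of the 24 h and 72 h changes in Iceland (vertical axis) against the same in America (horizontal axis), on the log2(CPM + 1) scale, for the 2111 unigenes with an America rise of at least 1 at both times. Dotted lines stand at 0.5 and -0.5 and the solid line marks equal change. The 60 members (red) lie in the band around 0 at the low end of the America rises, below most of the other unigenes (grey).

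Levels in America rose from low to moderate. Over the 60 members the median of the group means was 3.15 CPM in untreated America leaves, 8.67 CPM at 24 h and 10.3 CPM at 72 h. The median change in L was 1.13 at 24 h (range 1.00 to 1.84) and 1.37 at 72 h (range 1.03 to 2.23). Because 1 is added to each CPM, these values understate the change of unigenes at low levels. Over the 20811 unigenes the medians were 0.17 and 0.19. TMM scaling lowered the medians of the 20811 by 0.22 and 0.26, to -0.05 and -0.07, and those of the members to 0.92 and 1.11. Relative to all unigenes the members stood 0.96 higher at 24 h by library totals and 0.97 higher by TMM.

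Iceland leaves began at a higher level and ended lower than America leaves. The median group mean was 4.85 CPM untreated, 5.04 CPM at 24 h and 6.20 CPM at 72 h. Untreated L was higher in Iceland than in America in 55 of 60 members, by a median of 0.51, against 0.19 over the 2111 unigenes and -0.01 over the 20811. In 30 members it was higher by at least 0.5. Of the 20811 unigenes 10218 were higher in untreated Iceland leaves, 2148 of them by at least 0.5. Under PEG, Iceland was lower than America in 58 of 60 members at each time, by a median of -0.62 at 24 h and -0.75 at 72 h. Of the 20811, 13272 were lower in Iceland at 24 h and 12969 at 72 h. The medians over the 20811 unigenes were -0.13 and -0.11. A difference of at least 2-fold on this scale was reached by 10 members at 24 h, 19 at 72 h and 6 at both times. The conditions of the rule lead to such differences, and no share over the 20811 is given for these counts. The median Iceland changes of 0.08 and 0.20 became -0.11 and -0.04 with TMM, so their sign depends on the scaling.

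The level in single libraries shows how the groups relate. In untreated America leaves the median over members of log2(CPM + 1) was 1.98, 1.82 and 2.12 in replicates 1 to 3. At 24 h the America libraries stood at 3.30, 3.37 and 3.38, and at 72 h at 3.56, 3.51 and 3.31. All 6 America PEG libraries were above every other library. In Iceland the values were 2.53, 2.66 and 2.68 at 24 h and 2.58, 2.79 and 2.87 at 72 h. Untreated Iceland leaves were divided: replicates 1 and 2 stood at 2.34 and 2.26, below all Iceland PEG libraries, and replicate 3 at 3.02, above all of them.

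**Figure D2:**
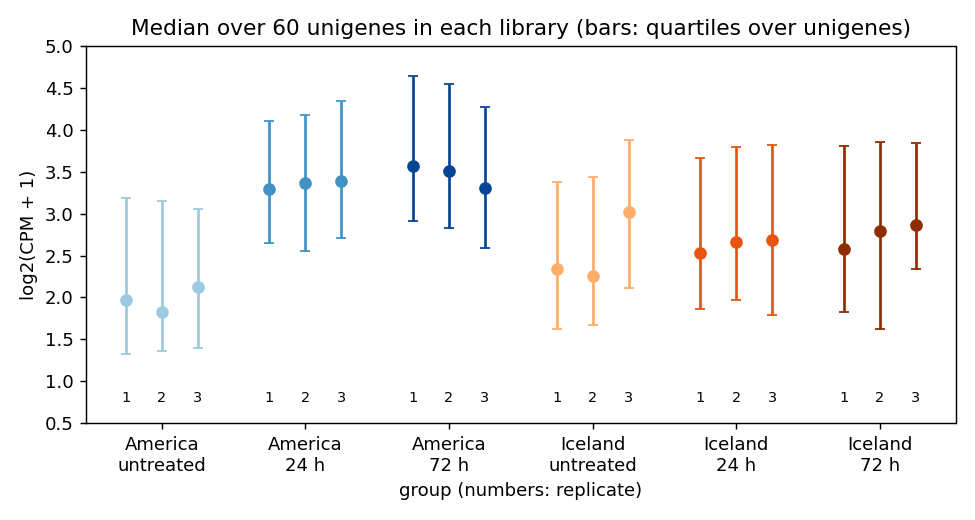
Median (points) and quartiles (bars) over the 60 members of log2(CPM + 1) in each of the 18 libraries, by group and replicate. America PEG libraries lie at 3.30 to 3.56 and untreated America libraries at 1.82 to 2.12. Untreated Iceland replicate 3, at 3.02, lies above the Iceland PEG libraries.

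Many members were flat in Iceland only with untreated replicate 3. It was the highest of the untreated Iceland libraries in 41 of 60 members, or 68.3%, against 56.6% of the 20811 unigenes and 82.3% of the 2111. It was the highest of all 9 Iceland libraries in 17 members, or 28.3%, where the shares were 17.1% of the 20811 and 2.84% of the 2111. In 21 members it held over 50% of the untreated Iceland CPM. The median member was 0.40 higher in it than the mean of replicates 1 and 2 on the log2(CPM + 1) scale. Without this library 33 members stayed within 0.5 at both times. The other 27 rose by 0.5 or more in Iceland at 24 h, 72 h or both, 17 of them at both times and 2 of those by at least 1 at both. None of the 60 fell by 0.5 or more. The median Iceland change without it was 0.32 at 24 h and 0.38 at 72 h, and the median untreated difference between origins fell from 0.51 to 0.28. Over the 2111 unigenes the library also stood between untreated replicates 1 and 2 and the Iceland PEG libraries, nearer to the former. The median log2(CPM + 1) of the 2111 was 3.92 in it, 3.15 and 3.10 in untreated replicates 1 and 2, and 4.87 to 5.15 in the Iceland PEG libraries. Its TMM factor was 0.978, where those of replicates 1 and 2 were 0.830 and 0.821 and those of the Iceland PEG libraries 1.01 to 1.09. Every untreated Iceland mean given here includes it unless stated, and a cause in handling or labelling was not tested.

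**Figure D3:**
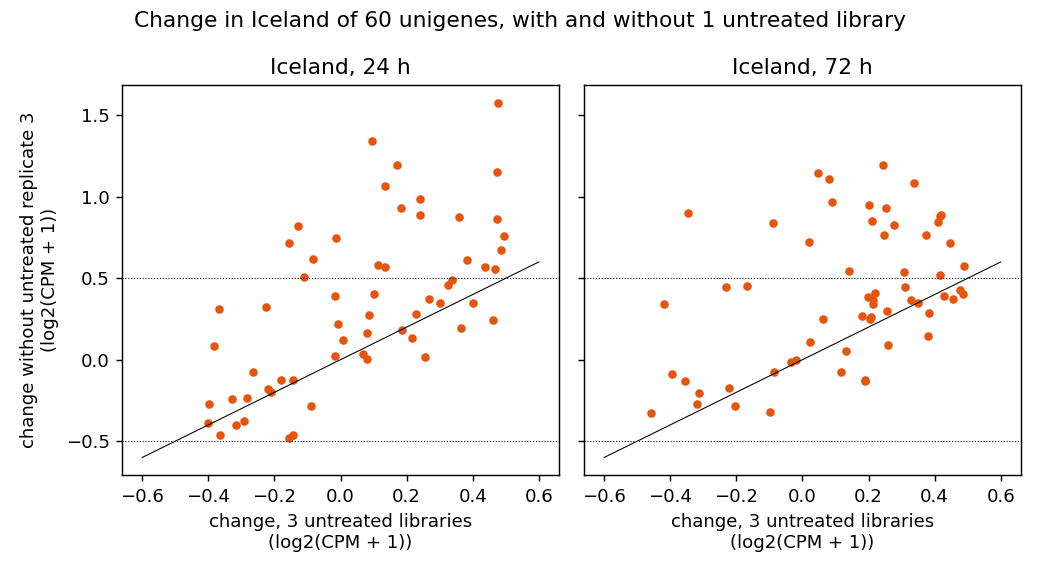
Change in Iceland of each of the 60 members at 24 h (left) and 72 h (right), computed with all 3 untreated Iceland libraries (horizontal axis) and without replicate 3 (vertical axis), on the log2(CPM + 1) scale. Points above the upper dotted line, at 0.5, are members that no longer meet the limit once that library is left out, and the solid line marks equal values.

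Overlap between groups was counted library by library. America 24 h libraries were all above untreated America libraries in 55 of 60 members (background 34.9%), and America 72 h libraries in 57 (background 38.2%). The 6 America PEG libraries were all above the 3 untreated America libraries in 54 of 60 members, and in 29.6% of the 20811 unigenes. They were above all 12 other libraries in 12 members, where the background was 1.4%. America 24 h libraries were all above Iceland 24 h libraries in 27 members (background 22.1%), and America 72 h above Iceland 72 h libraries in 32 (background 23%). In Iceland the 24 h libraries were all above the 3 untreated libraries in 3 members (background 26.2%) and the 72 h libraries in 6 (background 30.7%). Set against untreated replicates 1 and 2 alone, the 24 h libraries were above in 22 (background 40.3%) and the 72 h libraries in 31 (background 43.7%). All 6 Iceland PEG libraries were above all 3 untreated libraries in 1 member (background 21.3%). Without untreated replicate 3 this was so in 19 members, with a background of 35.2%. The 3 untreated Iceland libraries were all above the 3 untreated America libraries in 20 members (background 8.92%), and the reverse held in 0 (background 10.2%). The rule used all of these contrasts, so the shares describe the choice.

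**Figure D4:**
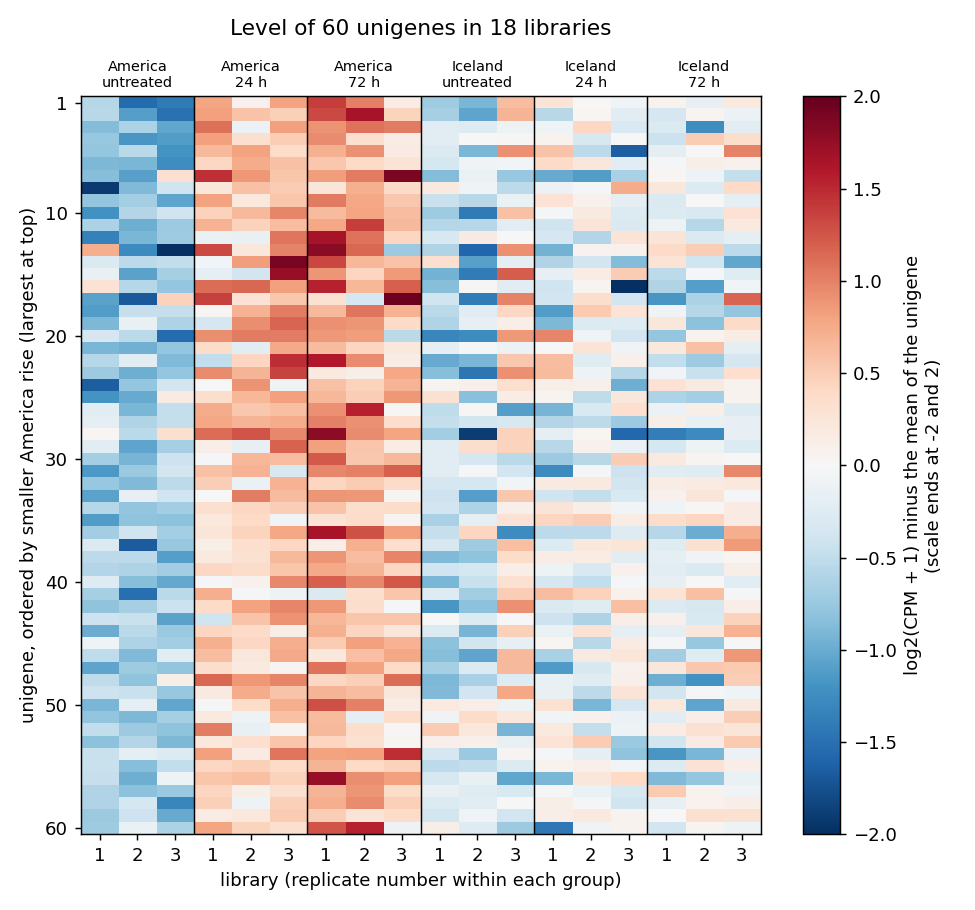
Level of the 60 members (rows, ordered by the smaller of the 2 America rises, largest at the top) in the 18 libraries (columns, 3 per group). Colour is log2(CPM + 1) minus the mean of the unigene over the 18 libraries, red above and blue below, with the scale ending at -2 and 2. America PEG columns are mostly red and untreated America columns blue, and the third untreated Iceland column is redder than the first and second.

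The America rise passed a test across all unigenes in 39 members at 24 h and 43 at 72 h, and the difference between origins in 3 and 4. The rule had already used these contrasts, so the counts and shares describe the choice and are no independent evidence. All 60 members were among the 30895 unigenes tested with edgeR's quasi-likelihood test (adjusted p threshold 0.05, Benjamini-Hochberg). In America 39 were higher at 24 h, where 16% of all tested unigenes were, and 43 at 72 h, where 18.4% were. The 24 h count was 27 with no filter on low counts (4.99% of all tested unigenes higher) and 19 to 33 without 1 library (10.4% to 13.5%). It was 19 without 24 h replicate 3 (10.4%), 22 without untreated replicate 2 (11.4%) and 25 without untreated replicate 1 (13.1%). Both times were passed by 34 members and neither by 12. In Iceland 1 member was lower at 24 h, against 20.6% of all tested unigenes, and 0 passed at 72 h, where 46.4% passed in either direction. At an unadjusted p under 0.05, 1 member passed at 72 h, and limma-voom and DESeq2 also called 0. Without untreated Iceland replicate 3, 5 members were called at 24 h, of which Unigene0014049, Unigene0014592, Unigene0031423 and Unigene0044496 were higher under PEG, by fitted log2 changes of 1.33, 1.45, 0.62 and 1.41. They are named after their values were seen, and 20.6% of all tested unigenes were higher in that fit. Without treatment 4 members were higher in Iceland (background 2.74%). At 24 h 4 were lower in Iceland than in America (background 5.96%), and at 72 h 13 (background 5.15%). The response itself was called different between origins in 3 members at 24 h, where 0.375% of tested unigenes were called in that direction. All 3 were less positive in Iceland, the direction that the rule set. At 72 h it was called different in 4, where the background was 0.278%. DESeq2 called 8 and 16 members lower in these comparisons, where it called 2.02% and 1.61% of all tested unigenes lower. Limma-voom called 2 and 0, with shares of 0.0939% and 0.0227%. EdgeR called 3 and 4 members without untreated Iceland replicate 3, with shares of 1.2% and 0.995%. A member that did not pass is not shown to respond alike in both origins.

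The 5 members called in either difference of responses were Unigene0048132, Unigene0072049, Unigene0019997, Unigene0009731 and Unigene0010685, which are named after their values were seen. Unigene0048132 stood at 4.84, 4.80 and 3.58 CPM in untreated America leaves. It reached 13.5, 17.1 and 15.3 CPM at 24 h and 14.9, 13.3 and 12.2 CPM at 72 h. In Iceland it stood at 7.57, 9.41 and 9.47 CPM untreated, 13.1, 11.8 and 8.43 CPM at 24 h, and 9.61, 10.7 and 10.5 CPM at 72 h. The America groups did not overlap with untreated leaves, and untreated Iceland replicate 3 was close to replicate 2. Its fitted log2 difference of responses, Iceland minus America, was -1.43 at 24 h and -1.36 at 72 h, and it was also 1 of the 4 higher in untreated Iceland leaves. The call was kept in 7 of 12 refits without 1 library at 24 h and in 3 of 12 at 72 h, with edgeR adjusted p up to 0.0666 and 0.108.

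Unigene0072049 was even within the America groups. Its untreated America libraries stood at 7.85, 7.71 and 7.24 CPM, and its America PEG libraries at 16.9, 16.2 and 18.7 CPM at 24 h and 21.7, 20.4 and 16.7 CPM at 72 h. In Iceland the values were 9.17, 9.51 and 13.7 CPM untreated, 11.5, 9.85 and 13.2 CPM at 24 h, and 10.6, 9.93 and 13.4 CPM at 72 h. All 6 America PEG libraries were above the other 12. The fitted difference of responses was -1.04 at 24 h and -1.25 at 72 h. The 24 h call was lost in all 12 refits without 1 library (edgeR adjusted p up to 0.126), and the 72 h call was kept in 5.

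Unigene0019997 was the call kept most often at 24 h and the 1 member called lower in Iceland at that time. It stood at 28.4, 21.1 and 23.0 CPM in untreated America leaves, 56.4, 52.5 and 54.8 CPM at 24 h, and 66.0, 62.4 and 41.7 CPM at 72 h. In Iceland it stood at 23.0, 24.9 and 25.9 CPM untreated, 21.4, 22.3 and 19.3 CPM at 24 h, and 35.2, 29.3 and 29 CPM at 72 h. The untreated groups overlapped, and all 6 America PEG libraries were above the other 12. Its 24 h difference of -1.37 kept its call in 11 of 12 refits (edgeR adjusted p up to 0.0596). The fitted Iceland change at 24 h was -0.45, a call that edgeR with DESeq2 size factors or no filter, limma-voom and DESeq2 did not make. That call was also lost without any single Iceland 24 h library and without untreated Iceland replicate 1 or 2. It was kept without untreated Iceland replicate 3.

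Unigene0009731 had the largest fitted difference among the 5, -2.86 at 72 h, and the lowest counts. Untreated America libraries stood at 1.35, 1.79 and 1.1 CPM, and America libraries at 8.20, 2.95 and 6.58 CPM at 24 h and 7.05, 8.16 and 7.88 CPM at 72 h. Iceland libraries stood at 2.69, 2.59 and 3.03 CPM untreated, 3.05, 4.71 and 2.50 CPM at 24 h, and 2.53, 0.82 and 2.70 CPM at 72 h. America replicate 2 at 24 h was within the Iceland range. The 72 h call was kept in 3 of 12 refits (edgeR adjusted p up to 0.116).

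Unigene0010685 was called at 72 h, with a fitted difference of -1.42. It stood at 21.7, 23.4 and 17.9 CPM in untreated America leaves, 67.9, 44.6 and 56.7 CPM at 24 h, and 79.9, 66.2 and 55.9 CPM at 72 h. In Iceland it stood at 27.8, 25.8 and 34.7 CPM untreated, 46.8, 40.5 and 33.4 CPM at 24 h, and 31.2, 38.0 and 33.8 CPM at 72 h. At 24 h the lowest America library, 44.6 CPM, was below the highest Iceland library, 46.8 CPM, and at 72 h the origins did not overlap. The 72 h call was kept in 5 of 12 refits (edgeR adjusted p up to 0.0814).

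Unigene0040120 had the largest smaller America rise, 1.70, and Unigene0036282 the next, 1.63. Unigene0040120 stood at 4.05, 1.60 and 1.83 CPM in untreated America leaves, 12, 6.96 and 12.1 CPM at 24 h, and 18.6, 14.1 and 7.31 CPM at 72 h. Its Iceland libraries stood at 3.62, 2.98 and 10.5 CPM untreated, 8.13, 6.54 and 6.14 CPM at 24 h, and 6.90, 5.73 and 7.66 CPM at 72 h. All 6 Iceland PEG libraries were above untreated replicates 1 and 2 and below replicate 3. Without replicate 3 its Iceland changes were 0.89 and 0.85 in place of 0.24 and 0.21.

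Unigene0036282 had the same form. Untreated America libraries stood at 4.05, 2.45 and 1.65 CPM, and America libraries at 12.1, 10.1 and 9.39 CPM at 24 h and 17.6, 22.4 and 9.08 CPM at 72 h. Iceland libraries stood at 3.70, 2.59 and 10.9 CPM untreated, 4.07, 6.62 and 5.41 CPM at 24 h, and 4.89, 6.76 and 5.86 CPM at 72 h. Untreated Iceland replicate 3 was again above every Iceland PEG library, and without it the changes were 0.62 and 0.72 in place of -0.08 and 0.02.

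The members with the highest mean CPM were Unigene0034339, at 53.3 CPM over the 18 libraries, and Unigene0024697, at 48.5 CPM. Unigene0034339 stood at 34.1, 29.2 and 31.1 CPM in untreated America leaves, 64.3, 68.7 and 72.6 CPM at 24 h, and 76.5, 65.2 and 66.3 CPM at 72 h. In Iceland it stood at 38.9, 33.0 and 55.0 CPM untreated, 61.6, 55.4 and 49.5 CPM at 24 h, and 48.1, 52.2 and 57.5 CPM at 72 h. Its America PEG libraries were all above the other 12, the highest of which was an Iceland 24 h library. Without untreated Iceland replicate 3 its Iceland changes were 0.61 and 0.54, beyond the limit of 0.5 at both times.

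Unigene0024697 stood at 27.0, 24.8 and 31.9 CPM in untreated America leaves, 65.7, 42.0 and 75.8 CPM at 24 h, and 62.9, 66.2 and 61.0 CPM at 72 h. Iceland libraries stood at 36.5, 36.0 and 44.7 CPM untreated, 52.7, 53.2 and 35.8 CPM at 24 h, and 51.7, 52.2 and 53.6 CPM at 72 h. America replicate 2 at 24 h lay below 6 Iceland libraries, so the origins overlapped at 24 h and not at 72 h. Without untreated Iceland replicate 3 its Iceland change at 72 h was 0.52.

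The clearest gap between the 6 America PEG libraries and the other 12 was in Unigene0078930 and Unigene0045267, by 0.38 and 0.33 on the log2(CPM + 1) scale. Unigene0078930 stood at 5.08, 2.35 and 1.93 CPM in untreated America leaves, 9.86, 9.99 and 7.84 CPM at 24 h, and 13.5, 6.91 and 10.4 CPM at 72 h. Its Iceland libraries stood at 1.77, 4.03 and 3.32 CPM untreated, 2.77, 4.18 and 0 CPM at 24 h, and 2.27, 1.33 and 3.78 CPM at 72 h. The value of 0 in Iceland replicate 3 at 24 h was the only 0 among the members' libraries, and 3 counts, the limit a count of 0 allows, correspond to 0.312 CPM there, for counting error only. Its Iceland change stayed within 0.5 without untreated replicate 3, at -0.23 and -0.17.

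Unigene0045267 stood at 4.28, 2.54 and 5.41 CPM in untreated America leaves, 10.1, 11.3 and 9 CPM at 24 h, and 16.8, 8.93 and 7.88 CPM at 72 h. Its Iceland libraries stood at 2.19, 0.38 and 6.05 CPM untreated, 3.51, 4.27 and 0.73 CPM at 24 h, and 0.96, 1.13 and 3.60 CPM at 72 h. Iceland libraries under PEG ranged below and above untreated America replicate 2. Without untreated Iceland replicate 3 the 24 h change was 0.75, in place of -0.01.

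**Figure D5:**
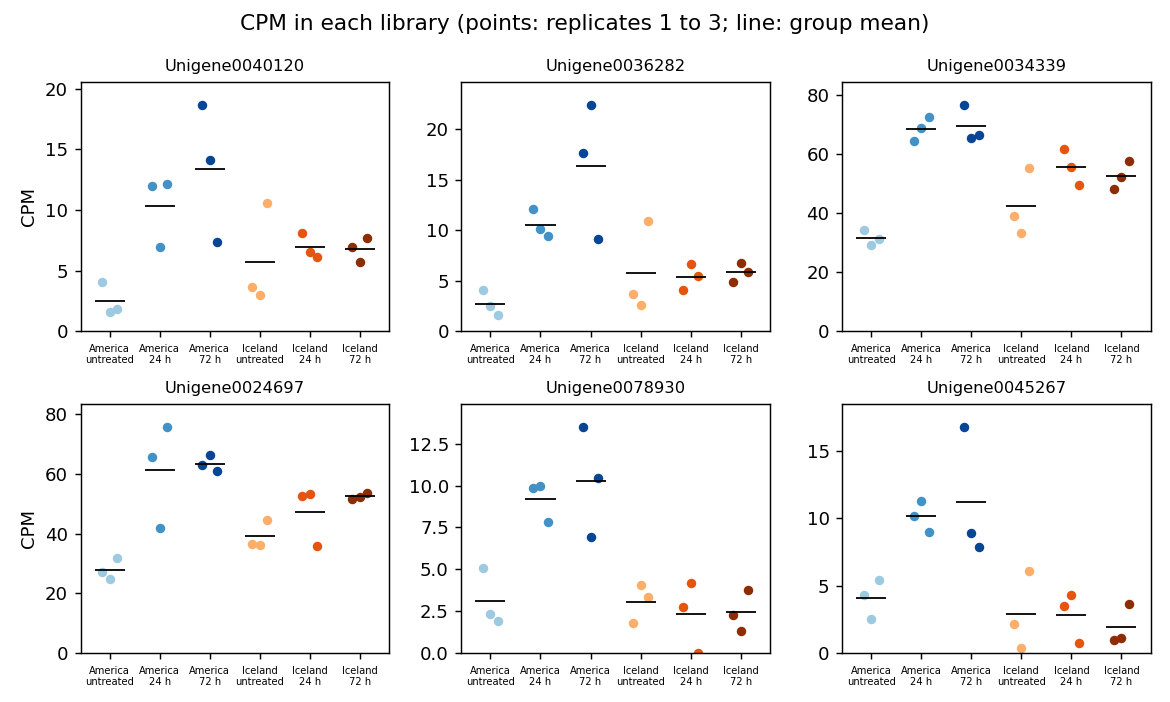
CPM of 6 members in each library, by group (points: replicates 1 to 3; line: group mean). The members are the pair with the largest smaller America rise, the pair with the highest mean CPM and the pair with the clearest gap to the other 12 libraries. In Unigene0040120 and Unigene0036282 the highest untreated Iceland library lies above all Iceland PEG libraries.

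America levels at 24 h and 72 h were close in most members. L at 72 h was within 0.5 of that at 24 h in 50 of 60, higher by at least 0.5 in 9 and lower by at least 0.5 in 1, and 47 were higher at 72 h by any amount. Among the 2111 unigenes 76% were within 0.5 and 65.7% were higher at 72 h. No member passed edgeR's test between these times in America, where 1.41% of all tested unigenes did, and 1 member had an unadjusted p under 0.05. In Iceland 0 passed, against 3.72%, and 2 had an unadjusted p under 0.05. No other tool was run on these comparisons.

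The largest further increases were in Unigene0057689 and Unigene0000218, at 0.78 and 0.76. Unigene0057689 stood at 1.35, 1.88 and 1.38 CPM in untreated America leaves, 3.50, 4.17 and 5.52 CPM at 24 h, and 11, 8.16 and 5.71 CPM at 72 h. Its Iceland libraries ranged from 0.59 to 5.31 CPM, with the lowest in untreated replicate 3 and the highest in replicate 3 at 72 h. Unigene0000218 stood at 4.76, 6.77 and 7.98 CPM untreated, 12.3, 12.2 and 29.7 CPM at 24 h, and 45.1, 30.1 and 18.7 CPM at 72 h. In Unigene0057689 the 24 h and 72 h libraries did not overlap, and in Unigene0000218 they did. Neither moved past 0.5 in Iceland without untreated replicate 3.

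The reverse order was seen most in Unigene0014592 and Unigene0044496, at -0.63 and -0.48. Unigene0014592 stood at 1.75, 1.32 and 1.65 CPM in untreated America leaves, 7.74, 6.30 and 10.6 CPM at 24 h, and 4.20, 3.94 and 6.75 CPM at 72 h. Untreated Iceland replicates stood at 1.51, 0.67 and 7.61 CPM. Without the third of these its Iceland changes were 1.20 and 1.11. In Unigene0044496 the 24 h libraries were even, at 29.1, 31.4 and 30.9 CPM, and the 72 h libraries were at 27.7, 27.1 and 9.81 CPM. Its untreated America libraries were at 11.4, 9.87 and 4.4 CPM and its untreated Iceland libraries at 5.38, 5.57 and 27.7 CPM. Without replicate 3 its Iceland changes were 1.58 and 1.15. These were the 2 members that rose by at least 1 at both times in Iceland without that library.

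Single libraries also shaped the America means. Over 50% of a group's CPM came from 1 library in 10 members untreated, 7 at 24 h and 5 at 72 h in America, and in 26 in untreated Iceland leaves. The member most dependent on 1 America PEG library was Unigene0044724, with 37.3% of the CPM of all 6 in replicate 3 at 72 h. It stood at 1.11, 0.38 and 5.04 CPM untreated, 10.4, 4.42 and 5.42 CPM at 24 h, and 4.45, 2.50 and 16.2 CPM at 72 h. The highest untreated library was above 3 of the 6 PEG libraries. Unigene0015886 was next, with 33.8% in replicate 3 at 24 h, at 85.9 CPM beside 22.1 and 19.2 CPM in replicates 1 and 2. Its untreated America libraries stood at 22.6, 11.4 and 15.4 CPM, so 2 of the 24 h libraries were below the highest untreated one, and the 72 h libraries at 47.1, 34.1 and 46.1 CPM were above it.

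Many members sat close to the limits that chose them. The smaller America rise was between 1 and 1.1 in 27 of 60, and 29 further unigenes met all other conditions with a value between 0.9 and 1. The larger Iceland change was between 0.4 and 0.5 in 19 members, and 31 further unigenes had one between 0.5 and 0.6. In 41 members at least 1 of the 3 limits was within 0.1. The last member taken, Unigene0001835, had a smaller rise of 1.00, at 24 h, with America libraries at 3.09, 5.08 and 3.30 CPM untreated and 10.5, 8.10 and 7.36 CPM at 24 h. The nearest unigene left out, Unigene0014826, had 0.997, at 72 h, with America libraries at 7.22, 2.54 and 5.96 CPM untreated and 11.9, 9.41 and 13 CPM at 72 h.

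The members were also chosen again without each library in turn, and the left-out library was set against the mean of the other 2 of its group. The left-out library is the one value here that the choice had not used. Left-out America 24 h libraries stood a median of -0.25, -0.20 and -0.04 from the other 2 on the log2(CPM + 1) scale (replicates 1 to 3, with 47 to 60 unigenes chosen). For America 72 h the medians were 0.12, -0.03 and -0.38. Iceland libraries stood at 0.03, 0.12 and 0.11 at 24 h and -0.07, -0.01 and 0.31 at 72 h. Untreated America libraries stood at 0.45, 0.16 and 0.11, and untreated Iceland libraries at -0.47, -0.46 and 0.03. Untreated America replicate 1 was higher than the mean of the other 2 in 61 of 77 unigenes chosen without it. Set against the untreated mean, which the choice did use, the left-out America libraries stood at 0.99, 1.03 and 1.15 at 24 h and 1.42, 1.31 and 1.07 at 72 h. They reached the limit of 1 in 30 of 60, 31 of 56 and 29 of 47 unigenes at 24 h. At 72 h they reached it in 47 of 57, 52 of 66 and 36 of 64. Left-out Iceland libraries stood at 0.11, 0.17 and 0.09 at 24 h and 0.10, 0.24 and 0.39 at 72 h. The rule took 37 unigenes without untreated Iceland replicate 3, of which 30 are members. Leaving out other untreated libraries also removed members. It kept 43 without untreated Iceland replicate 1 and 38 without replicate 2, and 40, 42 and 38 without untreated America replicates 1 to 3.

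The members were shorter and lower in level than the unigenes from which they were drawn. The length implied by the deposited FPKM values had a median of 1278 bases (range 301 to 4837), against 1776 in the 2111 unigenes and 1641 in the 20811. Mean FPKM over all libraries had a median of 5.51 in the members, 15.3 in the 2111 and 8.13 in the 20811. The low level was shared by the 104 unigenes taken with the origins exchanged, with a median of 3.89. Their median length was 1638 bases. Under 5 CPM lay 24 members, 29 lay between 5 and 20 and 7 at 20 or more. The median SD of log2(CPM + 1) within a group was 0.34 in untreated America leaves and 0.44 in untreated Iceland leaves, against 0.29 and 0.46 in the 2111 and 0.23 and 0.31 over the 20811. At 24 h in America it was 0.28 in the members, 0.31 in the 2111 and 0.23 over the 20811. The 3 untreated America libraries together held 35 to 1079 counts of a member, under 100 in 29 of them. Counting error is larger at low counts, and its part in the spread was not tested. No 2 members had adjacent identifiers, and the closest were 47 apart.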

How the data were processed

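The authors deposited 1 table with counts and FPKM for each of 18 leaf libraries, per the file headers. Tools listed in the submitters' processing notes, with no role given, are RSEM 1.3.1, cutadapt 1.18 and bcl2fastq 2.0.1. No source used here gives the assembler, annotation or strand setting. Deposited counts are whole numbers per unigene, summing to 9603068 to 12605500 per library, so that 1 count is 0.0793 to 0.104 CPM. Estimates by RSEM may have been rounded, and counts of near-identical unigenes are uncertain. The FPKM values deposited by the authors served only to give an implied length and levels per length.

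Members were chosen on CPM by library total and log2(group mean CPM + 1). Members and named unigenes were chosen with earlier results of these data known. The rule for named members took the leading 2 by smaller America rise, mean CPM, gap to the other 12 libraries, difference between 72 h and 24 h in either direction, and share in 1 library, plus the last taken and the first not taken.

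The deposited counts were fitted in R 4.3.3 with edgeR 4.0.16 (filterByExpr, TMM, quasi-likelihood test, 6 group means, 12 residual degrees of freedom), with p-values adjusted by Benjamini-Hochberg over 30895 unigenes. Simulated data were used to test the fit. Alternatives were DESeq2 1.42.0, limma 3.58.1 (voom), DESeq2 size factors, no filter, a replicate block, leaving out each library, and other settings of the rule. Settings without untreated Iceland replicate 3 for overlap and flatness were added after seeing the data.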

Additional observations from a re-analysis of the deposited data

Results flagged for a closer look

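Responses to PEG were called different between the origins, by edgeR's test of the difference itself (adjusted p threshold 0.05), in 3 members at 24 h and 4 at 72 h, with 5 unigenes in all and 2 at both times. The rule that chose the members used this contrast, so the calls are no independent evidence of a difference. Fitted log2 differences, Iceland minus America, were -1.43 (Unigene0048132), -1.37 (Unigene0019997) and -1.04 (Unigene0072049) at 24 h. At 72 h they were -2.86 (Unigene0009731), -1.36 (Unigene0048132), -1.42 (Unigene0010685) and -1.25 (Unigene0072049). Each America PEG library of the 5 unigenes was above all 3 untreated America libraries, as in 54 of the 60 members and 29.6% of the 20811 unigenes. Untreated Iceland replicate 3 was above replicates 1 and 2 in all 5, as in 41 of the 60 members and 56.6% of the 20811. The 5 were picked by their calls, so these counts are descriptions.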

How the results depend on the processing

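Of 157 alternative values, 104 stayed within 1.5 times the count, or within 1 SD between replicates for a median, and 53 did not. For the Iceland medians that SD was 0.417, from the untreated Iceland libraries, replicate 3 included. All alternative Iceland medians fell within it, also those without that library and those that changed sign with TMM, so the 104 says little about them. Of the 60 members the rule again chose 15 with TMM-scaled totals, 10 with a pseudocount of 5, 26 with group medians, 20 with untreated means of at least 5 CPM, and 30 to 60 without 1 library. Median America changes at 24 h and 72 h were 0.92 and 1.11 with TMM and 0.78 and 0.90 with a pseudocount of 5. Without 1 library the medians ranged from 1.08 to 1.21 and 1.25 to 1.42 in America, and -0.07 to 0.32 and 0.08 to 0.38 in Iceland. Without untreated Iceland replicate 3 all 6 Iceland PEG libraries were above the untreated ones in 19 members, the 24 h libraries in 22 (from 3) and the 72 h libraries in 31 (from 6), and 33 members were flat.

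The number of members called in America at 24 h was 27 with no filter (4.99% of all tested unigenes higher) and 19 to 33 without 1 library (10.4% to 13.5%). It was 19 without 24 h replicate 3 (10.4%). At 72 h it was 30 to 40 without 1 library (13.7% to 15.5%). The Iceland 24 h count was 0 with DESeq2 size factors, no filter, limma-voom and DESeq2 (8.21% to 21% of all tested unigenes lower), and 0 to 5 without 1 library. Without untreated replicate 3 it was 4 higher (20.6%) and 1 lower (21.4%). At 72 h it was 0 to 1 without 1 library, with 1 lower without 72 h replicate 3 (20.3%). The untreated difference was called in 2 with no filter (1.46% of all tested unigenes higher), 1 with limma-voom (1.75%), 7 with DESeq2 (4.55%), and 1 to 5 without 1 library (0.922% to 3.79%). The difference of responses at 24 h was called in 8 with DESeq2 (2.02% lower) and 0 to 3 without 1 library (0.0423% to 1.2%). At 72 h it was called in 9 with no filter (0.407% lower), 0 with limma-voom (0.0227%) and 16 with DESeq2 (1.61%). Without 1 library it was called in 0 to 6 at 72 h (0.00614% to 0.995%), with 6 without untreated America replicate 1 (0.433%). At both times it was called in 0 members without untreated America replicate 2, where 0.0423% of all tested unigenes were called lower at 24 h and 0.00906% at 72 h. With the replicate number as a block, 35 members were called in America at 24 h (15% of all tested unigenes higher) and 43 at 72 h (17.9%). In Iceland that fit called 1 lower at 24 h (19.9%) and 0 at 72 h (22.6% higher and 22.2% lower). Without treatment it called 4 higher in Iceland (2.12%). In the differences of responses it called 2 lower at 24 h (0.214%) and 3 at 72 h (0.142%). The replicate numbers share no stated origin: 10 of 45 same-numbered pairs had deviations correlated over 0.1, and 18 correlated best with their own number, so no pairing was used. Causes of these shifts were not tested.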

Other observations

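In the 104 unigenes chosen by the same rule with the origins exchanged (higher in Iceland, flat in America), untreated America replicate 2 was the highest untreated America library in 84, or 80.8%, against 30.3% of the 20811 unigenes inside the limits on abundance. It was a median of 0.79 above the mean of replicates 1 and 3 on the log2(CPM + 1) scale, and replicate 1 a median of -0.91 from its own 2 partners. Among the Iceland 72 h libraries replicate 2 was the highest in 82, or 78.8%, against 25.8% of the 20811. Untreated Iceland replicate 3 was the highest of its group in 41 of the 104, or 39.4%, below the 56.6% of the 20811. Their untreated levels were close between origins, with a median Iceland minus America difference of 0.09, where the 60 unigenes higher in America alone had 0.51.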
